A study of Mus musculus with 4 samples.

Results

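The genes of the 3 GATA transcription factors of blood cells, Gata1, Gata2 and Gata3, and Zfpm1, which encodes their cofactor FOG1, were read in the lists of accessible intervals of mouse blood stem and progenitor cells. An interval was taken for a gene when the authors' gene list for that interval named it, which gave 60 of the 220733 deposited intervals. Of these, 38 were assigned to Zfpm1, 13 to Gata3, 9 to Gata2 and 0 to Gata1. The cells were Lin-Sca1+Kit+ (LSK) cells sorted from mouse bone marrow, a gate that holds stem cells and early progenitors. 2 genotypes were compared, p53R248W/+ mice with 1 mutant allele of the tumor suppressor p53 (libraries R248W 1 and R248W 2) and p53+/+ mice (libraries WT 1 and WT 2), to ask how the mutant protein bears on gene regulation in these cells. Each library was made by ATAC-seq from 50000 cells, with a transposase that cuts open DNA. The labels give no age, no drug treatment and no account of how the mutant allele was made. They do not say whether libraries 1 and 2 were made from different mice, so p-values measure only the spread between these libraries, which may be technical.

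GATA factors are zinc finger proteins that bind the DNA letters GATA. GATA2 is needed for the upkeep of blood stem and progenitor cells. GATA1 takes over from it at shared sites as cells become erythroid cells or megakaryocytes, an exchange known as the GATA switch. GATA3 directs T cell and innate lymphoid development and is also made in stem cells. FOG1 does not bind DNA through these sites itself but docks on the amino-terminal finger of a GATA factor, and in erythroid cells and megakaryocytes it serves GATA1 as a partner in both activation and repression.

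The lists held 60385 intervals in R248W 1, 51150 in R248W 2, 46720 in WT 1 and 62478 in WT 2, and read depth was unknown. The deposited highest-bin signal had medians of 62, 50, 52 and 62 in the same order. It is the authors' value for each interval and was used here only to rank intervals within a list. A list with fewer intervals can miss a weak site, so a missing call is not evidence of closed chromatin. The sorted cells carried start-site intervals (summit within 1 kb of a start) in all 4 libraries at 5 of 7 LSK marker genes, among them Kit and Cd34, where 60.1% of all genes named in the table carried one. That count is near the share of all genes and does not by itself mark the cells as LSK cells. Such intervals lay at 0 of 3 T cell, 0 of 3 B cell and 0 of 2 NK cell markers, 0 of 3 neutrophil markers, 3 of 3 megakaryocyte markers and 1 of 3 mast cell and basophil markers (Cpa3). The counts of genes with a start-site interval differed by at most 1 between libraries within each list. A region at any position called in all 4 libraries lay at 7 of 7 LSK, 1 of 3 T cell, 3 of 3 B cell and 0 of 2 NK cell markers. It also lay at 2 of 3 neutrophil, 3 of 3 megakaryocyte and 2 of 3 mast cell and basophil markers, against 90.7% of all genes. A count of 0 at the starts is thus not an absence of intervals at these genes. One mast cell and basophil gene, Mcpt8, was called in the WT libraries alone, with signals of 25 and 27. The part of these cells in the results below was not tested, and in bulk libraries fewer cells of a type and less accessibility per cell cannot be told apart.

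The 5 starts that the RefSeq promoter windows give for the 4 genes differed in sequence and in whether they were called. The annotated Gata1 and Gata3 genes reach further upstream, to 7976663 and 9887953, and no window was read at those ends. The 250 bases upstream of each of the 5 starts, on GRCm38.p6, are printed here. Each CpG dinucleotide is in capitals so that the density can be seen.
Gata1 (chrX:7967911-7968160, minus strand): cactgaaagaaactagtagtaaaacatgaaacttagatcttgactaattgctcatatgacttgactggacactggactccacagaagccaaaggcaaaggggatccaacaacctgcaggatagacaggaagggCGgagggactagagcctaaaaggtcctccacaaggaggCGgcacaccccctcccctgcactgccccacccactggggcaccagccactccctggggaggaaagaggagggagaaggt
Gata2, upstream start (chr6:88193641-88193890, plus strand): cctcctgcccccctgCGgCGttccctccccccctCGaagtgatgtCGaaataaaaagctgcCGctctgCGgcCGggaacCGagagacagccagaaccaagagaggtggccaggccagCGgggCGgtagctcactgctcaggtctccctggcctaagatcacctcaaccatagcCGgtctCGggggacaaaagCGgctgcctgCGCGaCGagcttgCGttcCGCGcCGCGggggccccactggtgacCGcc
Gata2, downstream start (chr6:88198414-88198663, plus strand): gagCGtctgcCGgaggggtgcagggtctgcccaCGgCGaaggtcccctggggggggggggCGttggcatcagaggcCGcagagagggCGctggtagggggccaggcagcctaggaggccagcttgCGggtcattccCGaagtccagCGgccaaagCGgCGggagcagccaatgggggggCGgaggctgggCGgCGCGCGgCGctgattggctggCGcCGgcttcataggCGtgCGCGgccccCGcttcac
Gata3 (chr2:9878601-9878850, minus strand): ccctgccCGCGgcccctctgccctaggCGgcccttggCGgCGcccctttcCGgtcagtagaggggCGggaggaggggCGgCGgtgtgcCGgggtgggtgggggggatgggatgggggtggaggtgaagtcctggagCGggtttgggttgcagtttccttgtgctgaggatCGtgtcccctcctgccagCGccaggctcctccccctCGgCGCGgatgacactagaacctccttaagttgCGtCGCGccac
Zfpm1 (chr8:122281891-122282140, plus strand): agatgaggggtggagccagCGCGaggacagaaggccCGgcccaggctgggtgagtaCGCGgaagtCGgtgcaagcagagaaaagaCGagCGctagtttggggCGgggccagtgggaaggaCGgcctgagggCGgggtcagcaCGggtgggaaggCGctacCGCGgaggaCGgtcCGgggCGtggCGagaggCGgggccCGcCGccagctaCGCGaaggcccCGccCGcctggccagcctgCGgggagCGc

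The Gata1 sequence had 2 CpG dinucleotides and a GC content of 54.0%. The other 4 had 22 (Gata2, upstream start), 24 (Gata2, downstream start), 19 (Gata3) and 28 (Zfpm1), with GC contents of 67.2, 74.0, 70.0 and 73.2%. An interval overlapped the promoter window, these 250 bases and the 50 that follow, in all 4 libraries for Gata3 and Zfpm1. At the upstream Gata2 start it did so only in WT 2, and at the Gata1 start and the downstream Gata2 start in 0 of 4 libraries. Of all 32851 windows in the RefSeq table, 41.8% were covered in all 4 libraries and 51.7% in none.

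Read against windows of like CpG content, Gata1 was in the majority and the downstream Gata2 start in the minority. Among the windows with at most the CpG count of Gata1, 90.0% were covered in no library. Among those with at least the CpG count of the downstream Gata2 start, 89.7% were covered in all 4 libraries and 5.18% in none. For the GATA motif, AGATAA with its variant AGATAG, as well as TGATAA with its variant TGATAG, was searched for on both strands, and 0 matches lay in any of the 5 printed sequences, against at least 1 match in 26.5% of all windows' upstream sequences. CCACCC, the core of sites bound by Kruppel-like factors, occurred 1 time upstream of Gata1, 3 times upstream of Gata3 and 2 times upstream of Zfpm1, and was present in 28.1% of all windows. CCAAT, the core of the NF-Y site, occurred 2 times upstream of the downstream Gata2 start and was present in 33.8%. CCACCC and CCAAT were also searched for on both strands, and matches of one did not overlap those of the other, as they lay upstream of different starts. Among the 3 CCACCC matches upstream of Gata3, 2 overlapped each other. A match describes letters in a short window and not a bound site.

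**Figure D1:**
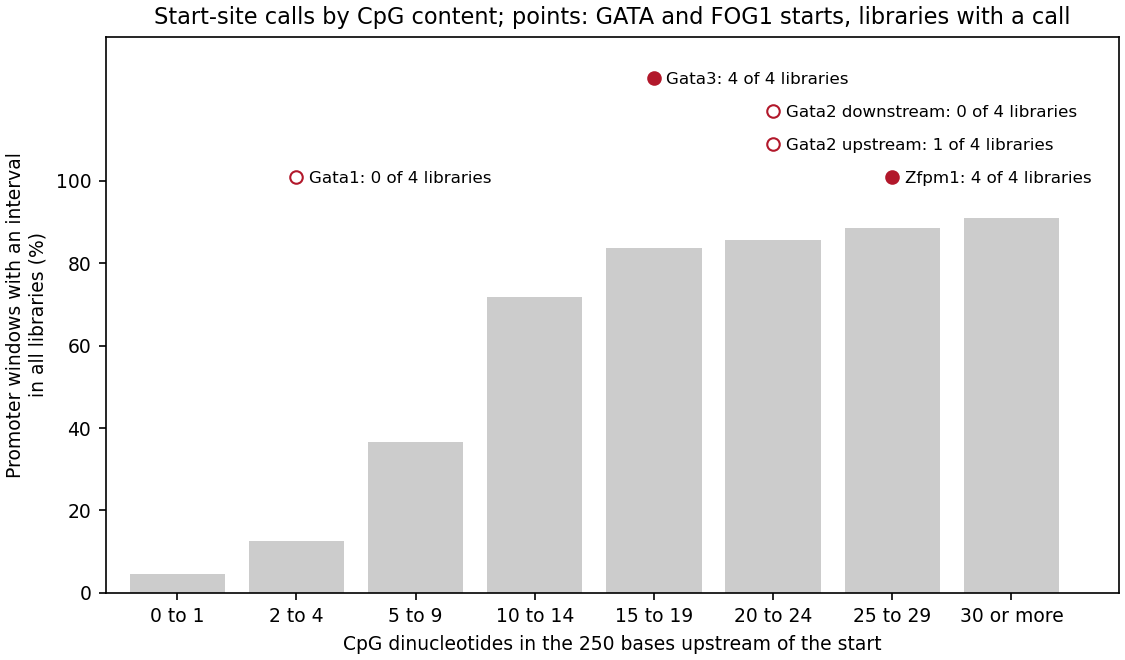
Bars give the percentage of RefSeq promoter windows with an interval in all 4 libraries (vertical axis) by the number of CpG dinucleotides in the 250 bases upstream (horizontal axis). Points above the bars mark the starts of the GATA and FOG1 genes, filled where 4 of 4 libraries had a call, and show Gata1 in a bin where 12.6% of windows were covered and both Gata2 starts in a bin where 85.7% were.

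Gata1 had no interval in its body or near its start in any library. The gene (gene ID 14460) lies at chrX:7959260-7976663 on the minus strand, and the nearest interval to its start was 19222 bases away in R248W 1, 19226 in R248W 2, 19261 in WT 1 and 19239 in WT 2. That interval was the promoter of the neighboring gene Hdac6, which encodes a cytoplasmic deacetylase, with highest-bin signals of 382 in R248W 1, 284 in R248W 2, 246 in WT 1 and 341 in WT 2. The Hdac6 promoter was therefore called in all 4 libraries while its neighbor was not. On the other side the next interval was at Glod5 in R248W 1, R248W 2 and WT 2, with signals of 40, 31 and 27, and at Suv39h1 and Was in WT 1, with 207.

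Over all 4 libraries the stretch without an interval around Gata1 was 66.8 kb long. Of the gaps between neighboring merged regions on X, 23.3% were longer, and of those on all chromosomes 9.51%. Gaps of this length were thus common on X. Of all protein-coding genes, 19.1% had no region within 10 kb of the gene, and of those on X 40.9%, although Gata1 met this limit narrowly, as the Hdac6 interval ended 10572 bases from it. No interval number was missing from any of the 4 lists.

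Gata2 was called at distal elements in every library and at a start in WT 2 alone. The gene (gene ID 14461) lies at chr6:88193891-88207032 on the plus strand and has 2 annotated starts, and the authors measured distances from the downstream one, at 88198664. The interval with the highest signal lay in the gene, with its summit 4568 bases past that start in both R248W libraries and 4504 in both WT libraries (chr6:88201954-88204100). Its highest-bin signals were 236 in R248W 1, 160 in R248W 2, 164 in WT 1 and 244 in WT 2. They stood at percentiles 88.5, 87.8, 87.7 and 89.5 of the lists of these libraries, which puts this site among the stronger intervals of each list.

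Counted from the upstream start, as the named Gata2 enhancers are, this summit was at 9341 bases in the R248W libraries and 9277 in the WT libraries. The intronic enhancer known as the +9.5 element, which is needed for stem cell emergence in the mouse embryo, falls inside the interval by that distance. A further interval, upstream of both starts (chr6:88189025-88190628), had signals of 127 in R248W 1, 108 in R248W 2, 121 in WT 1 and 133 in WT 2, all with the summit at the same base, 8904 bases upstream of the downstream start. The element named -3.9 falls inside it. The elements named -2.8 and -1.8 are sites of GATA factor occupancy in erythroid cells. Their positions by name fell outside the intervals of every library, 463 and 1174 bases from the nearest region. Each element was placed at a single base, so how far it extends was not read. The match is by distance only, since the sequence of these sites was not used here.

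The distal Gata2 enhancer named -77 also had an interval in all 4 libraries, although the authors' table names no gene for it. That region (chr6:88116203-88117687) contains the position 77 kb upstream, and its signals of 50 in R248W 1, 40 in R248W 2, 38 in WT 1 and 61 in WT 2 stood at percentiles 39.6, 37.3, 33.4 and 49.4 of those lists. It was thus weaker than the intronic site in every library. Between the neighbor gene Rpn1 and Gata2 there were 10 regions upstream with no assigned gene within 100 kb of Gata2, of which 3 were called in all 4 libraries, against 58.0% of all merged regions. A stronger one than the -77 site lay at chr6:88123160-88124798, with signals of 122 in R248W 1, 73 in R248W 2, 83 in WT 1 and 122 in WT 2. The third was at chr6:88165481-88166824, with 104 in R248W 1, 63 in R248W 2, 48 in WT 1 and 61 in WT 2. One weak region upstream, at chr6:88135776-88136930, was called in both WT libraries, with signals of 34 and 32, and in neither R248W library.

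At the upstream Gata2 start itself, WT 2 had an interval of signal 66 (chr6:88193264-88194952), at percentile 52.8 of its list, and the other 3 libraries had none. Their nearest intervals were 2636 bases from it in R248W 1, 2773 in R248W 2 and 2746 in WT 1. This call therefore separates WT 2 from the rest and not the genotypes. At the downstream start the nearest interval was 3445 bases away in R248W 1, 3931 in R248W 2, 3489 in WT 1 and 3291 in WT 2.

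**Figure D2:**
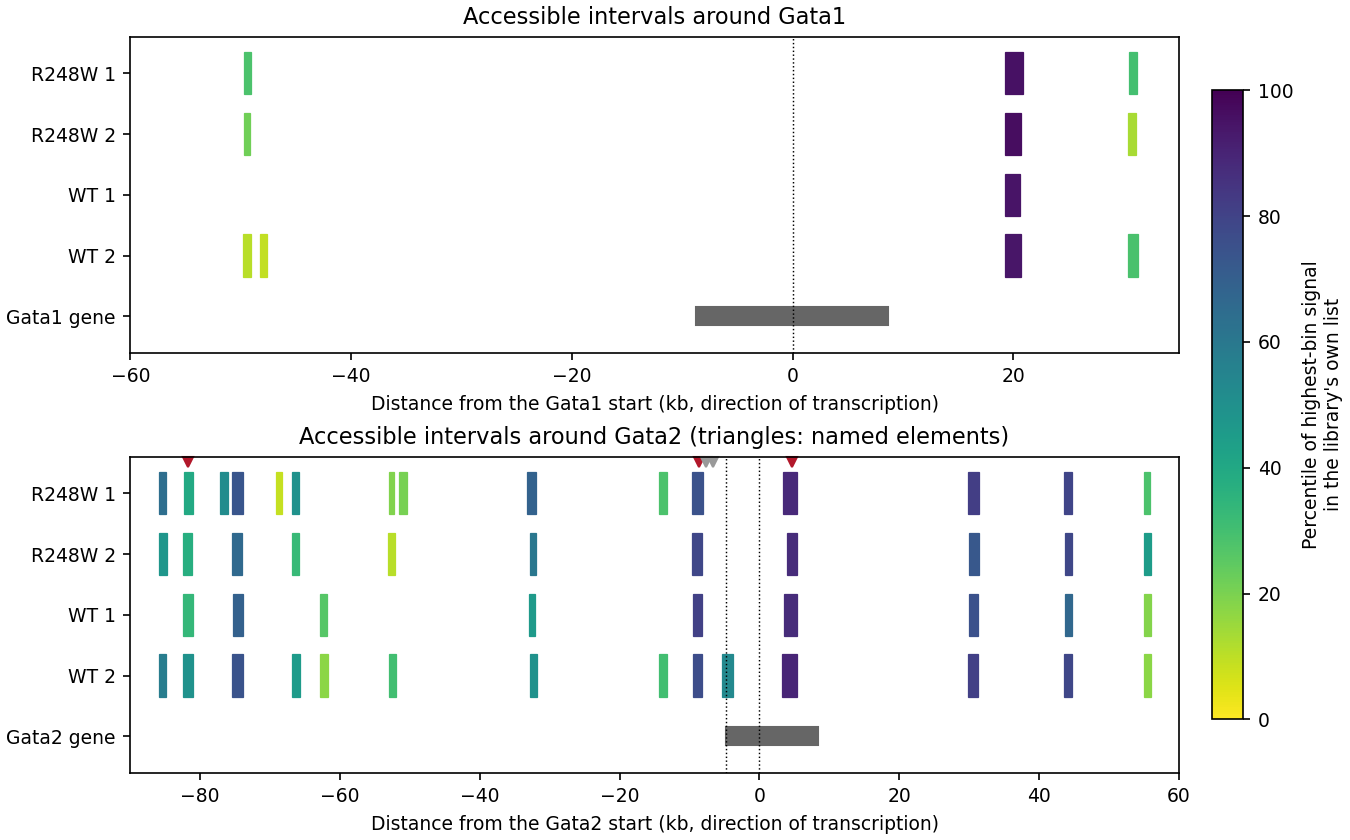
Intervals of each library (rows) around Gata1 and Gata2, by distance from the start in kb (horizontal axis), with color giving the percentile of the highest-bin signal in the library's own list, grey bars the genes, and dotted lines the annotated starts. Triangles mark the named Gata2 elements, red where an interval covers the position. Gata1 lies in an empty stretch of 66.8 kb, and Gata2 has an interval over its upstream start in WT 2 only.

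Gata3 was called over its start in every library by one of the longest intervals of each list. The gene (gene ID 14462) lies at chr2:9857078-9887953 on the minus strand with its start at 9878600. The start interval measured 5372 bases in R248W 1, 4591 in R248W 2, 4303 in WT 1 and 4892 in WT 2, at length percentiles 99.8, 99.8, 99.6 and 99.8. Its highest-bin signals were 467 in R248W 1, 313 in R248W 2, 230 in WT 1 and 432 in WT 2. They stood at percentiles 97.3, 97.4, 93.8 and 96.9 of those lists. The summit was at the same base in all 4 libraries, 1080 bases upstream of the start. The authors' table also names 4930412O13Rik and 9230102O04Rik for this interval in all 4 libraries, so its signal cannot be given to Gata3 alone.

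A further 3 regions belonged to Gata3. One in the gene, 7272 bases past the start (chr2:9870540-9873345), had signals of 122 in R248W 1, 73 in R248W 2, 65 in WT 1 and 97 in WT 2. The table also names 4930412O13Rik for it in all 4 libraries, and 9230102O04Rik in R248W 1 alone. One near the end of the gene, 17704 bases past the start (chr2:9860533-9861439), had no call in WT 1 and signals of 32 in R248W 1, 31 in R248W 2 and 34 in WT 2, so it was weak wherever it was called. The last, 10808 bases upstream (chr2:9888526-9890460), had 113 in R248W 1, 71 in R248W 2, 61 in WT 1 and 84 in WT 2. It began just beyond the upstream end of the annotated gene, at 9887953. In both R248W libraries the table also names 4930412O13Rik and 9230102O04Rik for it and counts 1 promoter there. Its signal cannot be given to Gata3 alone either.

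For that upstream region, assignment and overlap gave different counts. The authors' table assigned it to Gata3 in both R248W libraries and in neither WT library, yet all 4 libraries had an interval there. The edge nearest to Gata3 was 9926 bases from the start in R248W 1 and 9986 in R248W 2, against 10161 in WT 1 and 10142 in WT 2. The intervals given to Gata3 were those whose edge lay less than 10 kb away. By the table, Gata3 had 4 and 4 intervals in R248W 1 and R248W 2 against 2 and 3 in WT 1 and WT 2, a difference of 1.5 (exact permutation of the libraries, both sides, p = 0.33, the lowest that 2 against 2 allows). Counted by overlap with its regions, it had 4 and 4 in the R248W libraries against 3 and 4 in the WT libraries, and the difference of 0.5 gave p = 1 in the same exact permutation test.

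Zfpm1 carried the most intervals of the 4 genes, 9 in R248W 1, 10 in R248W 2, 9 in WT 1 and 10 in WT 2. Among the 20811 genes named in the table, these counts stood at percentiles 96.7, 98.5, 98.3 and 97.2. The percentiles take no account of gene length, although intervals inside a gene are counted. The gene (gene ID 22761) lies at chr8:122281856-122337862 on the plus strand. Its regions numbered 12, of which 3 had their summits upstream of the start, 7 in the gene and 2 downstream, by the authors' positions.

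The start interval of Zfpm1 had its summit 221 bases upstream of the start in all 4 libraries. Highest-bin signals were 460 in R248W 1, 291 in R248W 2, 341 in WT 1 and 442 in WT 2, at percentiles 97.2, 96.7, 98.1 and 97.0 of those lists. The interval was 6139 bases long in R248W 1, 5561 in WT 1 and 5601 in WT 2, but 2400 in R248W 2, where it ended at 122282694 and no other interval followed inside the region. The genotypes therefore overlapped in signal, and the short form was seen in 1 of the 2 R248W libraries. The table also names Gm22 for this interval and for the others upstream of the start. CpG islands in the authors' table numbered 4 at the interval of R248W 1, WT 1 and WT 2 and 3 at that of R248W 2.

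Inside Zfpm1 the strongest site was near the end of the gene, 49187 bases past the start (chr8:122330428-122331990), with signals of 136 in R248W 1, 113 in R248W 2, 81 in WT 1 and 134 in WT 2. The sites 22115, 32995 and 42147 bases past the start were also called in all 4 libraries, with signals between 44 and 77. The site 8861 bases upstream (chr8:122272756-122273974) was called in all 4, with 105 in R248W 1, 82 in R248W 2, 90 in WT 1 and 103 in WT 2. These 5 sites and the start interval are the 6 Zfpm1 regions shared by all libraries.

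The other 6 Zfpm1 regions were each missing from at least 1 library. The site 12195 bases past the start was missing from WT 1, and had 64 in R248W 1, 61 in R248W 2 and 50 in WT 2. The site 7005 bases upstream had 50 in R248W 1, 42 in WT 1 and 58 in WT 2 and was missing from R248W 2, and the site 27363 bases past the start had 25 in R248W 2, 26 in WT 1 and 37 in WT 2 and was missing from R248W 1. Each of these 3 patterns crosses the genotypes. WT 1 alone had a call of 42 at 17635 bases past the start, and R248W 2 and WT 2 shared a weak one 60899 bases past it, with 26 and 35.

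Among the regions assigned to the 4 genes, 1 followed genotype. It lay downstream of Zfpm1, 63683 bases past the start (chr8:122344965-122346430), and was called in R248W 1 with a signal of 59 and in R248W 2 with 38, at percentiles 47.5 and 34.2 of those lists, and in neither WT library. The nearest interval was 636 bases away in WT 2 and 2879 in WT 1. It was the only R248W-only region among the 19 regions of the 4 genes, and 0 were WT-only, where 1.23% of all 69759 merged regions were R248W-only and 0.827% WT-only. Without WT 2 the R248W-only regions of these genes numbered 3. A single region of 19 is therefore no result about these genes.

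**Figure D3:**
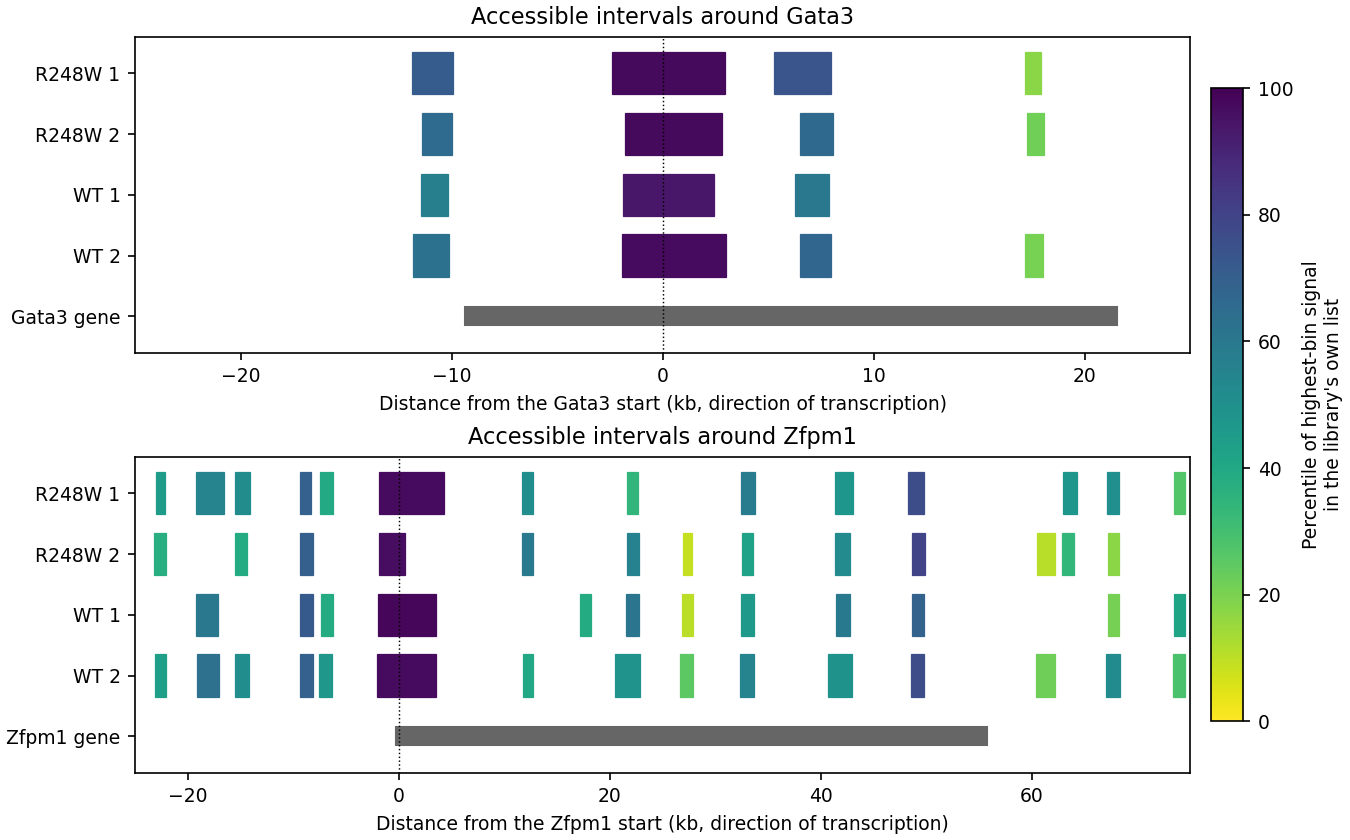
Intervals of each library (rows) around Gata3 and Zfpm1, by distance from the start in kb (horizontal axis), with color giving the percentile of the highest-bin signal in the library's own list, grey bars the genes, and dotted lines the starts. Long intervals cover both starts in all 4 libraries, the Zfpm1 one ending early in R248W 2, and the call 63683 bases past the Zfpm1 start is present in the R248W rows only.

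Taken as a group, the 4 genes had 19 merged regions, of which 11 were called in all 4 libraries, 4 in 3, 2 in 2 and 2 in 1. Over all regions 58.0% were called in all 4 libraries, so the share for these genes was close to the background. By library, 15 of the 19 were called in R248W 1, 16 in R248W 2, 14 in WT 1 and 17 in WT 2. The shortest list, WT 1, had the fewest and the longest, WT 2, the most. Intervals assigned by the authors numbered 15.5 ± 0.707 in R248W and 14.5 ± 2.12 in WT (SD, n = 2 libraries each), a difference within the spread (exact permutation, both sides, p = 1, with 0.33 the lowest it allows).

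By the highest signal of each gene, Gata3 and Zfpm1 came before Gata2 in every library. Gata3 and Zfpm1 changed places between libraries, with Gata3 higher in R248W 1 and R248W 2 and Zfpm1 higher in WT 1 and WT 2, so their order was not settled. The highest signal of Gata2 stood at percentiles 58.5 in R248W 1, 61.5 in R248W 2, 63.1 in WT 1 and 60.8 in WT 2 of the highest signals of all genes in the table. Those of Gata3 stood at 88.0, 89.9, 79.0 and 86.0, and those of Zfpm1 at 87.4, 87.7, 93.1 and 86.6, in the same libraries.

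**Figure D4:**
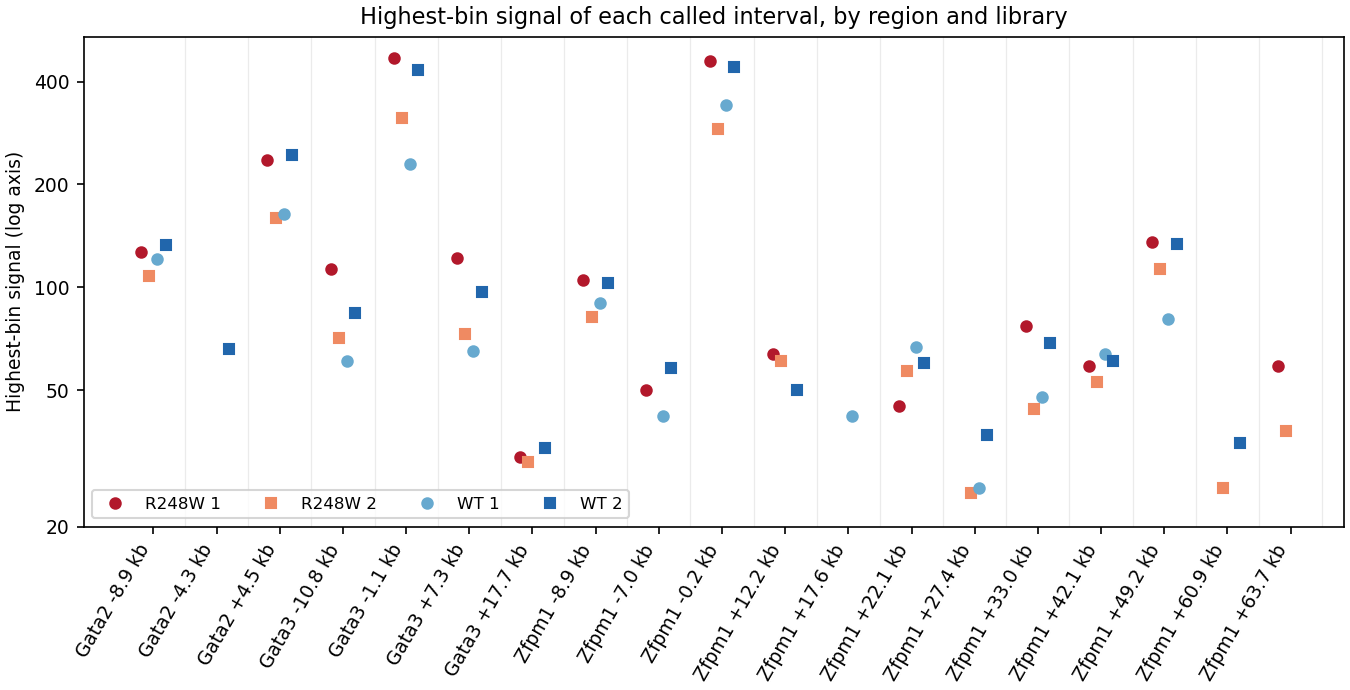
Highest-bin signal of each called interval (vertical log axis) for the 19 regions of Gata2, Gata3 and Zfpm1 (horizontal axis, distance of the summit from the start in kb), with red and orange points for the R248W libraries and light and dark blue for the WT libraries. The Gata3 and Zfpm1 starts reach 230 to 467 in all 4 libraries, and a missing point is a missing call.

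To set the genotypes side by side on one footing, each region called in all libraries was ranked within each library among the same 40492 shared regions, a measure chosen after the data were seen. All 3 shared Gata3 regions ranked higher in both R248W libraries than in both WT libraries. The start interval stood at percentiles 96.0 and 96.7 in R248W 1 and R248W 2, against 92.9 and 95.2 in WT 1 and WT 2. The site 7272 bases inside the gene stood at 61.2 and 58.2 in the R248W libraries, against 54.5 and 50.7 in the WT libraries. The site 10808 bases upstream stood at 57.9 and 57.0 in the R248W libraries, against 51.6 and 43.7 in the WT libraries, a difference of 9.77 percentile points. None of these can pass a test with 2 libraries a group (exact permutation, both sides, p = 0.33 each, the lowest it allows).

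Both shared Gata2 regions overlapped between the genotypes in this rank. The +9.5 site stood at 82.9 in R248W 1 and 84.7 in R248W 2, against 85.9 in WT 1 and 83.9 in WT 2. Of the 6 shared Zfpm1 regions, 5 overlapped. The site 49187 bases past the start did not, at 65.4 and 74.8 in the R248W libraries against 64.1 and 64.8 in the WT libraries. In all, 4 of the 11 shared regions ranked higher in R248W without overlap and 0 lower, where 16.0% of all shared regions ranked higher and 15.6% lower. The 7 that overlapped all had a lower mean rank in R248W. Among them the Zfpm1 site 22115 bases past the start had the largest difference, -11.3 percentile points. The median absolute difference in mean rank was 3.12 points over the 11 regions and 3.78 over all shared regions. The counts of 4 and 0 changed with single libraries. Without R248W 1, 4 of 12 shared regions ranked higher in R248W and 2 lower, and without R248W 2, 5 of 12 ranked higher and 5 lower. Without WT 1, 7 of 13 ranked higher and 0 lower, and without WT 2, 4 of 11 ranked higher and 6 lower. With 1 library left out, between 31.1 and 34.7% of all shared regions ranked higher in R248W. The share that ranked lower was not computed at these settings, and the 15.6% from all 4 libraries does not apply to them. The order rests on the highest bin: ranked by the mean-bin signal, only the Gata3 start interval kept it, at 79.9 and 84.6 in R248W 1 and R248W 2 against 75.9 and 78.1 in WT 1 and WT 2, and 15.9% of all shared regions then ranked higher in R248W. The Gata3 regions lie side by side at 1 gene and are not independent of each other.

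**Figure D5:**
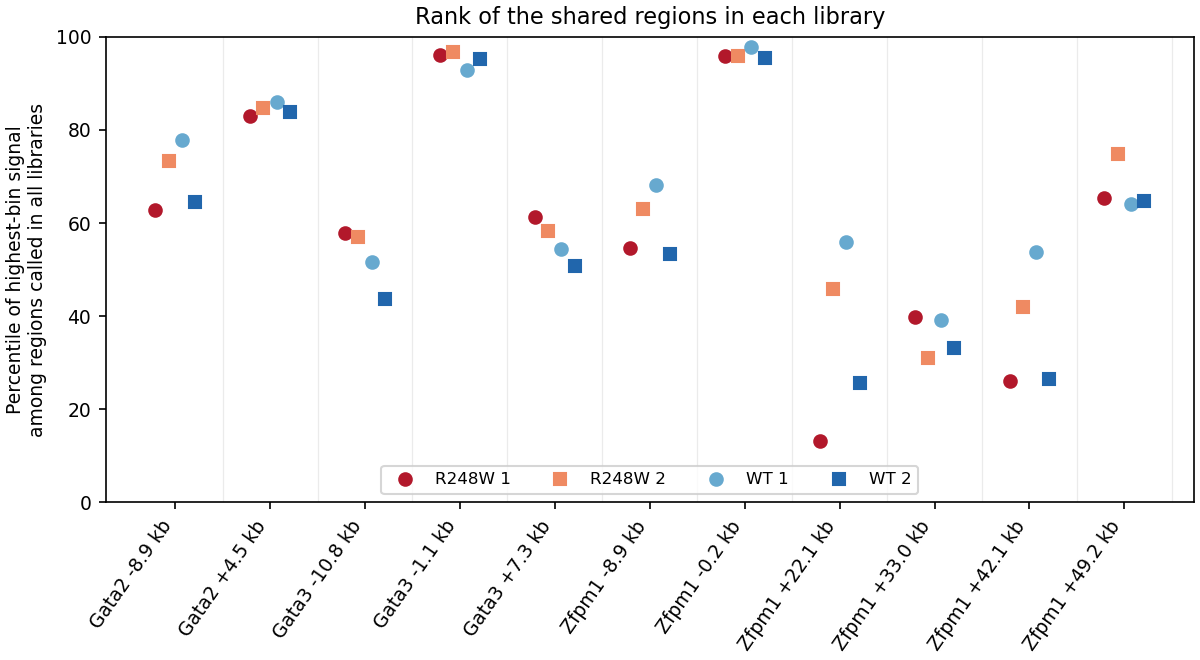
Percentile of the highest-bin signal among the 40492 regions called in all libraries (vertical axis) for the 11 shared regions of Gata2, Gata3 and Zfpm1 (horizontal axis, distance of the summit from the start in kb), with red and orange points for R248W and blue points for WT. The R248W points lie above the WT points at the 3 Gata3 regions and at the Zfpm1 site 49187 bases past the start.

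Genes of factors that work with GATA proteins were read in the same way. Of 13 partner genes, 12 had a region called in all 4 libraries, against 90.7% of the genes named in the table, and 5 had a start-site interval in all 4 (Ldb1, Runx1, Spi1, Gfi1b and Chd4), against 60.1%. Of the 4 genes of the GATA and FOG1 group, 3 had a region called in all 4 libraries and 1, Zfpm1, a start-site interval by this measure, as the Gata3 summit lay 1080 bases from its start. Partner genes had 0 R248W-only regions and 1 WT-only region, at Fli1, against 3.68% and 2.33% of genes. Of 12 target genes of GATA factors, 11 had an interval in at least 1 library and 10 a region called in all 4, against 90.7% of genes. A start-site interval in all 4 libraries lay at 8 of the 12, near the 60.1% of all genes. Among these 8 were Kit, Epor and the megakaryocyte genes Itga2b, Gp9 and Pf4. Target genes had 0 R248W-only and 0 WT-only regions.

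The genes most like each member were found by the mean difference in percentile over 4 libraries, taking the number of assigned intervals and the highest signal per gene. For Gata3 that number was 4 in R248W 1, 4 in R248W 2, 2 in WT 1 and 3 in WT 2. Counted by overlap it was 4, 4, 3 and 4, and the genes most like it were not sought by that count. Rax was nearest to Gata2, with 0.609 percentile points, before Ppp1r8 and Tbc1d15. Pdxp was nearest to Gata3, with 2.86, before Mycbp2 and Tmem201, and Eepd1 was nearest to Zfpm1, with 1.34, before Cacna1a and Capzb. None of these 9 genes shares an interval with the member. For Gata1, which had no interval, no such gene could be named.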

How the data were processed

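ATAC-seq intervals of 4 libraries of LSK cells, 2 per genotype as their labels give, were read from the deposited table. Intervals were called per library, and the submitters' processing notes name MACS 1.4.2 and mm10. Not given in the sources used here were the aligner, read filters, any shift of read ends for transposase cuts, depth and signal scaling. The signal is the authors' highest-bin and mean-bin value per interval, in bins of about 32 bases per the file headers and values. A different depth or scaling changes which weak intervals are called. Length equaled end minus start in 100% of entries, so starts may be counted from 0.

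Intervals of the 4 libraries were merged where they shared at least 1 base, into 69759 regions, each scored as called or not per library. R248W-only means called in both R248W libraries and in neither WT library. Exact permutation tests, two-sided, compared counts per library. Starts, gene coordinates and sequences came from RefSeq tables of GRCm38.p6, the same build as mm10, which held all 4 genes. The erythroid marker list is not reported here. The procedures were tested on simulated data. Python 3.11.15, numpy 2.4.6 and pandas 2.3.3 were used.

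The genes, lists and comparisons were chosen with earlier results of these data known. The rank among shared regions, the distances to named Gata2 elements and the promoter windows by CpG count were chosen after the data were seen. The text names the 4 genes, members of lists to complete a small count, genes that share or neighbor an interval, and the 3 genes most like each member. Alternatives were equal numbers of intervals per library, the best 50% of each list, a reciprocal overlap of 50%, each library left out, assignment within 100 kb by coordinates, pairing by replicate number and the share of the list.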

Additional observations from a re-analysis of the deposited data

How the results depend on the processing

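The count of intervals assigned to the 4 genes, R248W minus WT, was 1 and never passed the exact permutation test, with a smallest p of 0.33 over the alternatives for the group and for each gene. It ranged from -0.5 to 2.5 when 1 library was left out, and the negative value came without WT 1. It was 0 when all intervals of the merged regions were counted, an alternative added after the data were seen, in which the Gata3 site upstream counts in all libraries. The labels number the libraries of both genotypes 1 and 2 but do not say that a number marks a shared batch or day; with a replicate block the difference was 1 (exact sign-flip test, p = 1, smallest possible 0.5). For Gata2 the difference of -0.5 became 1 within 100 kb by coordinates, and 0 without WT 2, whose start-site call is then gone.

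The R248W-only count of 1 was 1 under equal numbers of intervals per library, the best 50% of each list, a reciprocal overlap of 50% and the window of 100 kb. It ranged from 1 to 3 when 1 library was left out, with 3 without WT 2. The WT-only count of 0 was 1 within 100 kb, and 1 whichever single library was left out. Regions called in all 4 libraries numbered 11, and 37 within 100 kb, where other genes' regions enter. They numbered 11 under equal numbers of intervals per library, 8 in the best 50% of each list and 9 under a reciprocal overlap of 50%. When 1 library was left out, the regions called in all remaining libraries ranged from 11 to 13. The 4 shared regions that ranked higher in R248W numbered 7 without WT 1, 12 of 37 within 100 kb and 1 by mean-bin signal. Those that ranked lower numbered 0, but 2 without R248W 1, 5 without R248W 2, 6 without WT 2 and 4 within 100 kb, all added after the data were seen. The cause of these shifts was not tested. Read depth is unknown, so no limit could be set for sites that were not called.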

Other observations

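The 5 GATA and FOG genes outside the blood group were also read. Gata4, a regulator of heart and endoderm, had highest signals of 48 in R248W 1, 37 in R248W 2, 36 in WT 1 and 41 in WT 2. Gata6, which acts in the same tissues, had 62, 53, 41 and 83 in those libraries, all at its start. Gata5 was called in R248W 2 alone, with a signal of 20. Zfpm2, which encodes the paralog FOG2, had a start-site interval in all 4 libraries, with 95 in R248W 1, 95 in R248W 2, 70 in WT 1 and 106 in WT 2. R248W-only regions lay at Gata4 and Zfpm2, or 2 of these 5 genes, against 3.68% of the genes named in the table. The Gata4 signals were below the median of each list, where calls are easily missed. A count of 2 in so short a list is no result about these genes. Trps1, an atypical GATA protein gene, had the most intervals of the 5, with 10 in R248W 1, 7 in R248W 2, 7 in WT 1 and 12 in WT 2.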
